A study of Homo sapiens with 6 samples.

Results

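The 39 genes described here encode integrin and laminin chains, matrix glycoproteins that integrins bind, and proteins of focal adhesions. They were listed by symbol and by role, with earlier results of these data known. The list comprised 12 integrin α chains, 8 integrin β chains, 9 laminin chains, 3 matrix glycoproteins and 7 focal adhesion proteins. All 39 were found among the 62438 genes of the count table, and 34 of them were among the 17320 genes with enough counts to test. The RNA-seq experiment compared 3 libraries from cells transfected with siRNA against N6AMT1 (si-N6AMT1) and 3 from cells transfected with scrambled siRNA (si-CN). Both groups received 10 nM siRNA in Lipofectamine RNAiMAX for 48 h, and libraries were made from RNA of triplicate cells with the TruSeq stranded mRNA kit. The comparison asked which transcripts change when N6AMT1, a methyltransferase that the study examined as a writer of N6-methyladenine in DNA, is reduced.

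Integrins are receptors of the cell surface, each built from an α and a β chain, that bind proteins of the extracellular matrix outside the cell and the actin cytoskeleton inside it. Laminins are trimers of an α, a β and a γ chain and form the sheet-like basement membrane on which epithelial cells rest. Talin, vinculin, kindlins and the pseudokinase ILK gather at the inner face of integrins in focal adhesions, where force and signals pass between matrix and cytoskeleton. In breast epithelium, basal cells sit on laminin and rely on these receptors for attachment.

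N6AMT1 stood at 6.93, 6.86 and 6.65 CPM (counts scaled to library size with TMM) in the si-CN libraries 1, 2 and 3, and at 3.08, 3.53 and 2.93 CPM in the si-N6AMT1 libraries. The groups did not overlap, and N6AMT1 fell by 1.10 on the log2 scale (SE 0.119, FDR = 3.65e-07, edgeR quasi-likelihood test). The libraries come from 1 cell line at 1 time point, and the labels do not say whether the 3 transfections of a group were separate cultures, so p-values measure the spread between these libraries, which may be technical. The cells are labelled MDA-MB-453, a breast cancer line of luminal type. Of the luminal markers listed, 5 of 10 were at 10 TPM or more in si-CN, among them KRT8, KRT18 and EPCAM at 748.0, 725.6 and 455.0 TPM, and so were 5 of 7 basal or myoepithelial markers, without MYH11 and CNN1. Several markers went against the label. The luminal markers KRT19 and GATA3 stood at 0.797 and 1.92 TPM, a unit of transcript abundance that divides counts by transcript length, whereas the basal markers KRT5, KRT17 and EGFR stood at 763.5, 4176 and 259.9 TPM. They are called here the cells labelled MDA-MB-453. Summed fibroblast markers ranged from 24.8 to 27.7 TPM in si-CN and from 25.8 to 28.3 TPM in si-N6AMT1, and the 3 endothelial markers found summed to at most 0.316 TPM in any library. Of 6 leukocyte markers, 5 were under 1 TPM. The sixth, CD68, a lysosomal glycoprotein that cells other than leukocytes also make, rose from 185.2 to 261.8 TPM (FDR = 1.64e-12, edgeR), and its part in the changes of the 39 genes was not tested. In bulk RNA, fewer cells of a kind and less RNA per cell cannot be told apart.

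After si-N6AMT1, 8 of the 34 tested genes fell and 5 rose at FDR under 0.05 (edgeR quasi-likelihood test, adjusted over all 17320 genes). The genes that fell encode the integrin chains ITGB1, ITGB5, ITGB6 and ITGAV, the laminin chain LAMA3, and the focal adhesion proteins talin (TLN1), vinculin (VCL) and ILK. Fibronectin (FN1), thrombospondin (THBS1), the fibronectin receptor chain ITGA5, and the laminin chains LAMB2 and LAMB3 rose. The changes were small. The largest was the fall of 24.5% in ITGB5, and 0 of the 13 genes reached 1.5-fold, which 4.39% of all called genes did.

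The share of tested genes that fell was 23.5%, compared with 11.5% of all genes tested, and the share that rose was 14.7%, compared with 9.78%. In either direction it was 38.2%, against 21.3% of all genes. Many of the 39 genes were highly expressed, and more genes are called at high counts. Of the 22 that had 100 CPM or more in si-CN, 7 fell and 5 rose, together 54.5%. The bound of 100 CPM was set after the data were seen. Of all 2349 genes at that level, 30.2% fell and 19.1% rose, together 49.3%, which is close to the share among the adhesion genes. The 34 genes had a median change of -0.0219 on the log2 scale, beside 0.00385 for all genes. All 3 si-N6AMT1 libraries lay below all 3 si-CN libraries for 10 of the 34 genes (29.4%, against 18.0% of all genes) and above them for 5 (14.7%, against 16.8%). ITGAV was the 1 called gene of the 13 whose groups overlapped.

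**Figure D1:**
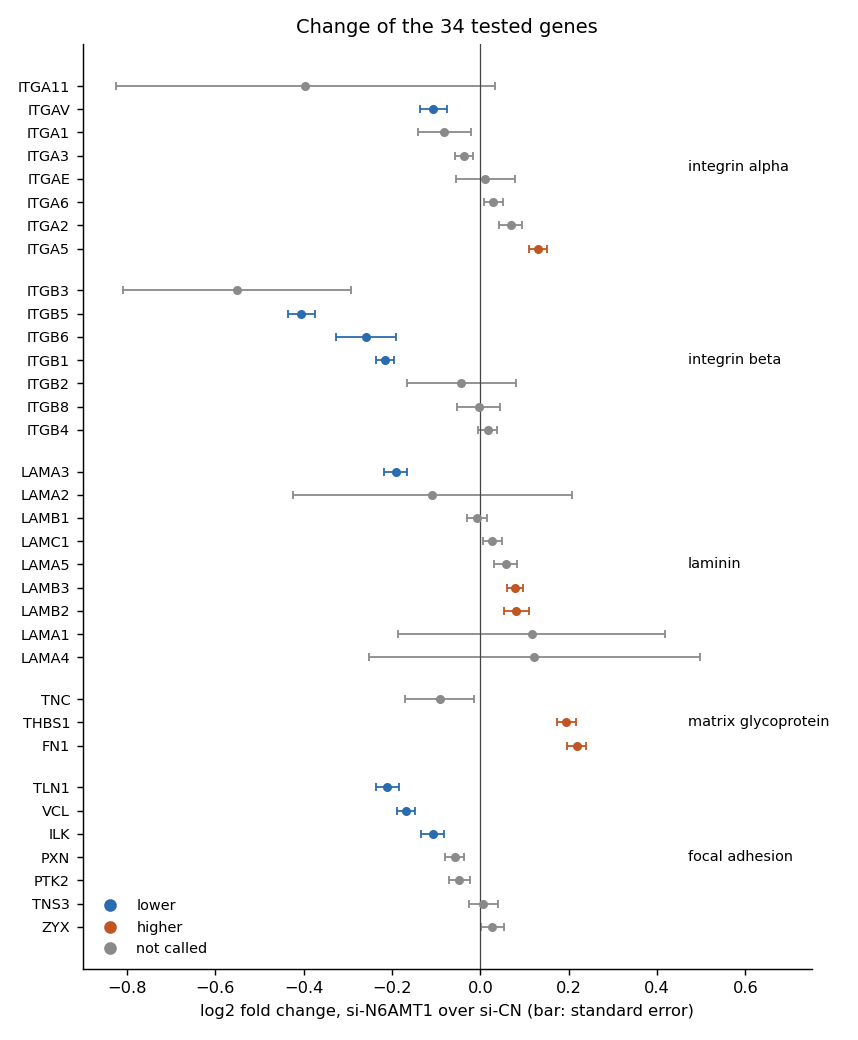
Log2 fold change of si-N6AMT1 over si-CN for the 34 tested genes, grouped by role, with bars of 1 standard error and colours for genes lower or higher at FDR under 0.05. The integrin β chains ITGB5, ITGB6 and ITGB1 and the focal adhesion genes TLN1, VCL and ILK lie to the left of 0, FN1 and THBS1 lie to the right, and the wide bars belong to genes with few counts such as ITGB3 and ITGA11.

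Sequences from 3′ untranslated regions (3′ UTRs) are shown for the called genes that hold TTCACAT or TCACATA, since an earlier analysis of these libraries found both more often in genes that fell. That analysis selected them with the fold changes used here, so their presence is a description. Capitals mark the match, and positions refer to the match in GRCh37 with transcripts of GENCODE v44. The site of VCL at chr10:75878205-75878212 on the plus strand holds both sequences overlapping in 8 bases. Those of ITGB5 at chr3:124482055-124482061 on the minus strand and of THBS1 at chr15:39890532-39890538 on the plus strand hold 1 sequence each.
VCL: agcccatggacTTCACATAagctcagaatc
ITGB5: gtttggcttttTTCACATtgatcattttt
THBS1: agtagccatgaTCACATAcaaatgtaaat
Of the 39 genes, 9 (23.1%) held such a site, and of the 34 tested genes 7 (20.6%) did, beside 22.5% of 13150 tested genes with a 3′ UTR of at least 50 bases. Among the 8 genes that fell, VCL and ITGB5 held one (25.0%), and the share over all genes that fell was 44.2%. Among the 5 that rose, THBS1 did, and the share over all genes that rose was 11.9%. ITGA1, ITGA11, ITGB8 and PTK2 held a site and were not called, and ITGA4 and ITGA9 held one and were not tested. ITGB1, TLN1, LAMA3, ILK, ITGB6 and ITGAV fell without either sequence in the reference transcript's 3′ UTR. The transcripts of the 8 genes that fell had a median GC content of 49.97% and those of the 5 that rose 58.0%. The same order held for all genes, with 43.3% for those that fell and 52.5% for those that rose, and the part of GC content in the changes was not tested.

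Levels between genes were compared in TPM, which divides by transcript length. In si-CN, LAMB3 was the highest of the 39 at 1366 ± 21.2 TPM (SD, n = 3). It encodes the β chain of the laminin that anchors basal epithelial cells. The integrin chains ITGA5 (484.3 ± 10.7 TPM), ITGA3 (407.3 ± 10.1 TPM), ITGB1 (334.2 ± 4.86 TPM), ITGB4 (310.5 ± 8.87 TPM) and ITGA6 (255.7 ± 7.59 TPM) followed, each separated from its neighbour by more than the range over the 3 libraries. ITGA3 with ITGB1, and ITGA6 with ITGB4, form laminin receptors, and ITGA5 with ITGB1 forms the main fibronectin receptor. Next came VCL, LAMC1 and PXN at 222.1, 219.9 and 218.8 TPM, whose ranges overlapped, and FN1, ZYX and ILK at 176.8, 174.8 and 165.6 TPM, where each overlapped the next.

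In all, 15 genes stood at 100 TPM or more, 8 from 10 to under 100, 6 from 1 to under 10, and 10 under 1 TPM. Of the 38 neighbouring pairs in the order of levels, 13 had ranges that overlapped. The genes under 1 TPM included ITGA4, ITGB7 and ITGB3, chains best known from leukocytes and platelets, and LAMA1, LAMA2 and LAMA4, laminin chains of embryo, muscle and vessels. Not every such chain was that low, as the leukocyte chains ITGB2 and ITGAE stood at 4.06 and 9.72 TPM. A level depends on which transcript length divides the counts. With the median length of a gene's coding transcripts in place of the reference transcript, an alternative added after the data were seen, ITGB5 moved from 52.7 to 174.3 TPM, PTK2 from 92.6 to 464.7 TPM and LAMA3 from 42.7 to 65.8 TPM. Other levels were lower with that length, among them LAMB3 at 857.7 TPM, ITGB1 at 200.6 TPM, ITGB4 at 202.7 TPM and VCL at 125.3 TPM. LAMB3 was still above every integrin chain, but ITGA3 (545.4 TPM) then stood above ITGA5 (505.7 TPM). Fold changes between groups use no length.

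**Figure D2:**
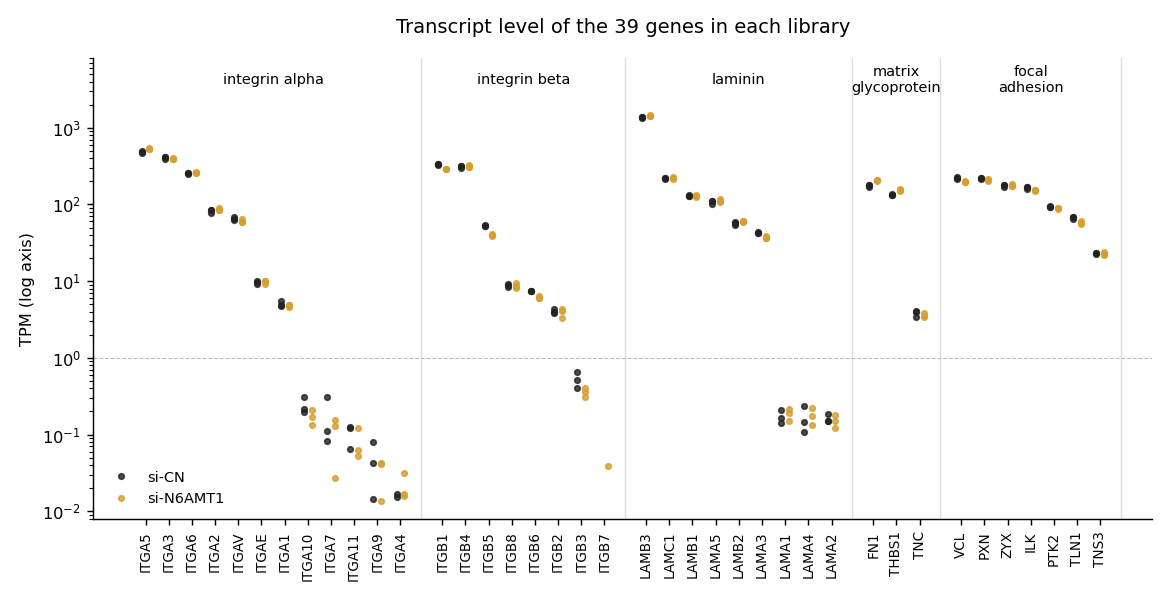
TPM of each of the 39 genes in each library on a log axis, with si-CN in black and si-N6AMT1 in orange, ordered by level within each role, and libraries at 0 left out. LAMB3 is the highest at 1366 TPM in si-CN, 10 genes lie under the dashed line at 1 TPM, and the levels span several orders of magnitude while the groups lie close together for each gene above 1 TPM.

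Of the 8 integrin β chains, 7 were tested, 3 fell (42.9%, beside 11.5% of all genes) and 0 rose (beside 9.78%). At 100 CPM or more in si-CN, 30.2% of all genes fell and 19.1% rose. Of the tested β chains, only ITGB1, ITGB4 and ITGB5 reached that level, and ITGB6, which also fell, did not. ITGB5 (chr3:124480795-124620265), which pairs with integrin αV to bind vitronectin, stood at 104.4, 104.9 and 106.0 CPM in si-CN and at 77.9, 77.9 and 82.1 CPM in si-N6AMT1. Every si-N6AMT1 library was lower, and the difference was many times the spread within either group. ITGB5 fell by 0.41 on the log2 scale (SE 0.0304, FDR = 1.16e-09, edgeR quasi-likelihood test), the steepest fall among the called genes of the 39.

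ITGB1 (chr10:33176201-33294720) encodes the β chain with the most α partners and is required for most collagen, fibronectin and laminin receptors. It stood at 563.3, 553.8 and 566.1 CPM in si-CN, or 561.1 ± 6.46 (SD, n = 3), and at 482.6, 484.2 and 481.5 CPM in si-N6AMT1, or 482.8 ± 1.36 (SD, n = 3). The groups did not overlap, and ITGB1 fell by 0.22 on the log2 scale (SE 0.0204, FDR = 4.59e-08, edgeR), which is 13.96%. ITGB6 (chr2:160956178-161056824), an epithelial partner of integrin αV that activates TGF-β, was much less abundant, at 15.8, 15.2 and 15.3 CPM in si-CN and 13.4, 12.8 and 12.5 CPM in si-N6AMT1. It fell by 0.26 on the log2 scale (SE 0.0688, FDR = 0.00835, edgeR), while DESeq2, the tool the study used, gave an FDR of 0.101.

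ITGB4 (chr17:73717408-73753899), the hemidesmosome chain that pairs with ITGA6, stood at 807.1, 827.3 and 833.6 CPM in si-CN and 854.1, 812.3 and 830.6 CPM in si-N6AMT1. The groups overlapped, and the log2 fold change of 0.02 had 95% limits of -0.0265 and 0.0599. ITGB8, another partner of integrin αV, had a log2 fold change of -0.00 (95% limits -0.101 and 0.0928), and ITGB2, the leukocyte chain, one of -0.04 (SE 0.124). ITGB3, the platelet chain that also pairs with integrin αV, had 21 to 37 counts per si-CN library and 17 to 21 per si-N6AMT1 library. Its log2 fold change of -0.55 had an SE of 0.259 and an FDR of 0.145, so a change of that size was not detectable at this depth. ITGB7 had 0 counts in 5 libraries and 1 count in the sixth.

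The 8 β chains summed to 718.2 ± 13.9 TPM in si-CN and 659.3 ± 14.6 TPM in si-N6AMT1, and ITGB3, ITGB5, ITGB6 and ITGB8, which pair with integrin αV as ITGB1 also can, to 69.4 ± 1.31 and 55.0 ± 1.20 TPM (SD, n = 3). For the 12 α chains the sums were 1310 ± 33.4 and 1347 ± 33.3 TPM, which overlapped. In si-CN, ITGA1, ITGA2, ITGA3 and ITGA5, α chains that pair with ITGB1 alone, summed to 978.9 TPM, above the 334.2 TPM of ITGB1 itself. These sums are of transcripts and not of protein, and they depend on the transcript length used, here that of the reference transcript. With the median length of coding transcripts, ITGB5 stood at 174.3 TPM and ITGB1 at 200.6 TPM in si-CN.

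Of the 12 integrin α chains, 8 were tested, 1 rose (12.5%, beside 9.78% of all genes) and 1 fell (12.5%, beside 11.5%). ITGA5 (chr12:54789045-54813050), the fibronectin receptor chain, stood at 917.7, 940.3 and 917.4 CPM in si-CN and at 1027, 1008 and 1002 CPM in si-N6AMT1. All 3 si-N6AMT1 libraries were higher, and ITGA5 rose by 0.13 on the log2 scale (SE 0.0202, FDR = 4.55e-05, edgeR), or 9.44%, whereas its only β partner ITGB1 fell.

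ITGAV (chr2:187454737-187545628), the chain shared by receptors for vitronectin and latent TGF-β, stood at 203.1, 205.5 and 213.4 CPM in si-CN and at 203.7, 187.3 and 187.1 CPM in si-N6AMT1. The first si-N6AMT1 library lay within the si-CN range. ITGAV fell by 0.11 on the log2 scale (SE 0.0301, FDR = 0.0128, edgeR), but the call was lost without si-N6AMT1 replicate 2 (FDR = 0.0802), si-N6AMT1 replicate 3 (FDR = 0.0911) or si-CN replicate 3 (FDR = 0.0975).

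ITGA3 (chr17:48133332-48167845), a laminin receptor chain of epithelia and the third most abundant of the 39 by the reference transcript's length, stood at 882.6, 907.7 and 894.9 CPM in si-CN and at 886.6, 856.7 and 873.8 CPM in si-N6AMT1. Its groups overlapped, with a log2 fold change of -0.04 and 95% limits of -0.0776 and 0.00352. ITGA6, the partner of ITGB4, had a log2 fold change of 0.03 (95% limits -0.0122 and 0.0715). ITGA2, a collagen receptor chain, had one of 0.07 with an FDR of 0.0636 (edgeR), which passed the threshold at 0.04 without si-N6AMT1 replicate 3. ITGA1, ITGA11 and ITGAE were not called. ITGA4 had 0 to 2 counts per library, ITGA9 had 1 to 6, ITGA7 had 1 to 12 and ITGA10 had 6 to 15, and they were not tested.

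**Figure D3:**
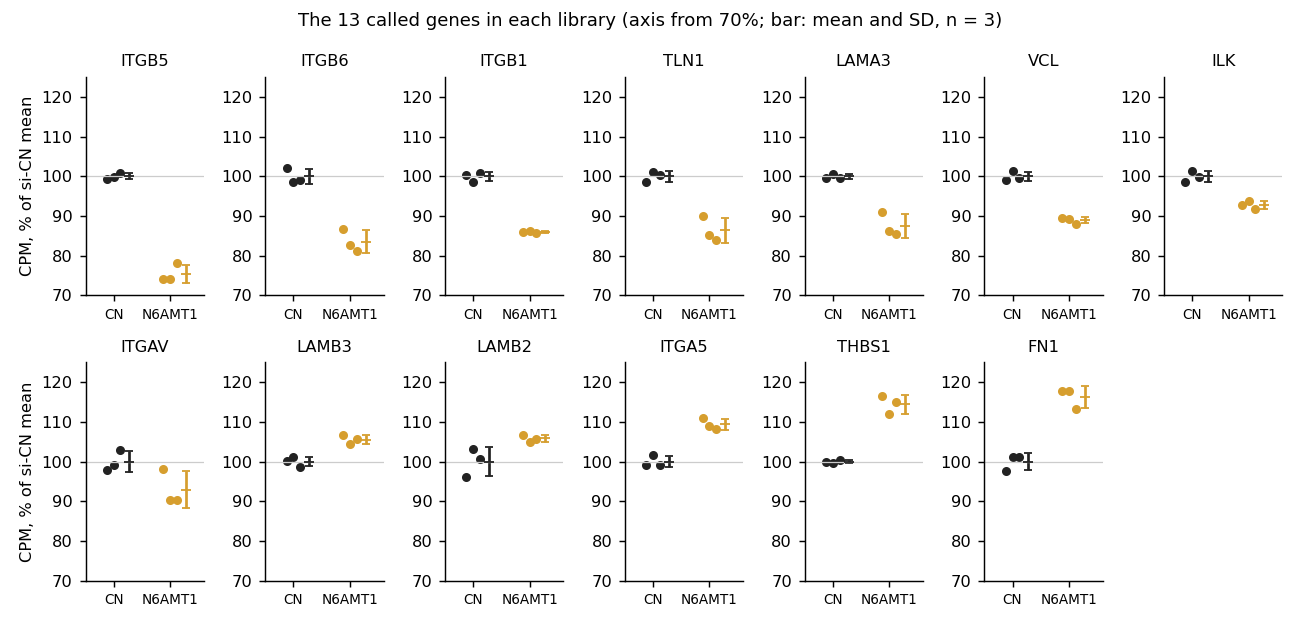
CPM of the 13 called genes in each library as a percent of the si-CN mean, with si-CN (CN) in black, si-N6AMT1 (N6AMT1) in orange, bars of mean and SD (n = 3), and an axis from 70%. The si-N6AMT1 points lie below every si-CN point for 7 genes and above them for 5, while those of ITGAV overlap.

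All 9 laminin chains were tested, 1 fell (11.1%, beside 11.5% of all genes) and 2 rose (22.2%, beside 9.78%). Most of the chains, with all those called, had 100 CPM or more in si-CN. At that level 30.2% of all genes fell and 19.1% rose, so the share of laminin chains that rose was close to that of genes at like levels. LAMA3 and LAMB3 are an α and a β chain of the laminin that attaches basal epithelial cells to the basement membrane. LAMA3 (chr18:21269417-21536186) stood at 203.7, 205.5 and 203.6 CPM in si-CN and at 186.1, 176.1 and 174.5 CPM in si-N6AMT1, a fall of 0.19 on the log2 scale (SE 0.0262, FDR = 8.81e-06, edgeR). LAMB3 (chr1:209788215-209825770) moved the other way, from 2466, 2491 and 2434 CPM to 2627, 2573 and 2603 CPM, a rise of 0.08 (SE 0.0189, FDR = 0.00405, edgeR). In neither gene did the groups overlap.

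LAMA3, the chain that fell, was the less abundant of the pair, at 42.7 TPM in si-CN against 1366 TPM for LAMB3. LAMB2 (chr3:49158547-49170551), a β chain of other basement membrane laminins, stood at 140.2, 150.6 and 146.9 CPM in si-CN and at 155.7, 153.3 and 154.4 CPM in si-N6AMT1. Its rise of 0.08 on the log2 scale (SE 0.0276, FDR = 0.0372, edgeR) was the weakest call. It was lost when any library but si-CN replicate 2 was left out (FDR 0.0692 to 0.207) and under DESeq2 (FDR = 0.157).

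LAMA5, LAMB1 and LAMC1, the chains of the most widespread epithelial laminin, were not called. Their log2 fold changes were 0.06 (FDR = 0.136, edgeR), -0.01 (FDR = 0.882) and 0.03 (FDR = 0.417). LAMA1, LAMA2 and LAMA4 had 7 to 19 counts per library, with SE of 0.303, 0.316 and 0.374 on the log2 scale, so that changes of the size seen in LAMA3 were not detectable there.

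Fibronectin and thrombospondin were the most clearly raised of the 39. FN1 (chr2:216225163-216300796), the matrix protein bound by ITGA5 with ITGB1, stood at 650.2, 674.7 and 674.5 CPM in si-CN and at 784.9, 786.0 and 754.7 CPM in si-N6AMT1. It rose by 0.22 on the log2 scale (SE 0.0224, FDR = 1.75e-07, edgeR), or 16.3%. THBS1 (chr15:39873280-39891667), a secreted glycoprotein that binds integrins and activates TGF-β, stood at 468.3, 466.1 and 469.9 CPM in si-CN and at 545.5, 524.0 and 538.0 CPM in si-N6AMT1. It rose by 0.19 (SE 0.0214, FDR = 4.49e-07, edgeR), or 14.5%. Every si-N6AMT1 library was above every si-CN library for both genes. TNC, an anti-adhesive glycoprotein, was low at 3.82 TPM and not called (log2 fold change -0.09, SE 0.0782, FDR = 0.464, edgeR).

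All 7 focal adhesion genes were tested, 3 fell (42.9%, beside 11.5% of all genes) and 0 rose (beside 9.78%). Most had 100 CPM or more in si-CN, where 30.2% of all genes fell and 19.1% rose. TLN1 (chr9:35696945-35732192) encodes talin, which binds the tails of integrin β chains and switches integrins on, and it stood at 257.4, 264.3 and 261.8 CPM in si-CN and at 235.3, 222.3 and 219.5 CPM in si-N6AMT1. It fell by 0.21 on the log2 scale (SE 0.0260, FDR = 2.28e-06, edgeR). VCL (chr10:75754951-75881121) encodes vinculin, which ties stretched talin to actin. It stood at 543.1, 556.2 and 546.6 CPM in si-CN and at 491.6, 489.7 and 483.1 CPM in si-N6AMT1, and fell by 0.17 (SE 0.0207, FDR = 2.17e-06, edgeR). In neither gene did the groups overlap.

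ILK (chr11:6624938-6632105), the pseudokinase that links ITGB1 tails to the actin-binding parvins, stood at 129.2, 132.8 and 130.7 CPM in si-CN and at 121.5, 122.7 and 120.3 CPM in si-N6AMT1. It fell by 0.11 on the log2 scale (SE 0.0260, FDR = 0.00415, edgeR), or 7.18%, with no overlap between groups. The scaffold PXN (paxillin) and the focal adhesion kinase PTK2 were also lower in every si-N6AMT1 library without passing the threshold. PXN had a log2 fold change of -0.06 (FDR = 0.0526, edgeR) and passed under limma-voom (FDR = 0.0295) and without si-N6AMT1 replicate 1 or si-CN replicate 1 (FDR = 0.0406 and 0.0496). PTK2 had one of -0.05 (FDR = 0.164). ZYX (zyxin, found at mature adhesions) and TNS3 (a tensin) overlapped between groups, with log2 fold changes of 0.03 and 0.01.

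For the 15 uncalled genes at 10 CPM or more, log2 fold changes ran from -0.09 to 0.07 and the 95% limits from -0.245 to 0.143, so each interval leaves out a fall as steep as that of ITGB5. For the 6 uncalled genes under 10 CPM the SE ran from 0.124 to 0.429. Together the 39 genes took 1.21% ± 0.0175 of counts in si-CN and 1.23% ± 0.0204 in si-N6AMT1 (SD, n = 3), a difference of 0.0279 percentage points with overlapping groups. Without LAMB3 the difference was 0.0122 percentage points.

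A further 108 genes of cell adhesion, listed by function as integrin and laminin chains outside the 39, adaptors and kinases, collagens and other matrix genes, and other matrix receptors, were examined beside them. Of these, 92 were tested, 15 fell (16.3%, beside 11.5% of all genes) and 18 rose (19.6%, beside 9.78%). Their shares were not compared with those of genes at like levels, and more genes are called at high counts. Adaptors and kinases gave 11 of the falls (25.6%) and 8 of the rises (18.6%) among 43 tested genes. Of the 15 other matrix receptors, 0 fell and 3 rose, among them the hyaluronan receptor CD44.

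The direct partners of called genes that are named here moved both ways. LIMS1 (PINCH) and PARVA (α-parvin) form a complex with ILK, and both fell, LIMS1 from 64.8, 63.8 and 62.7 CPM to 54.7, 57.0 and 55.0 CPM (log2 fold change -0.20, FDR = 0.000212, edgeR) and PARVA from 79.0, 82.8 and 79.7 CPM to 66.6, 67.7 and 62.8 CPM (log2 fold change -0.29, FDR = 1.60e-06). PARVB, the parvin that can replace PARVA, was not called (log2 fold change -0.02, SE 0.0561, FDR = 0.857), nor was RSU1, the partner of LIMS1 (-0.11, FDR = 0.138). FERMT2, the kindlin that binds ITGB1 tails together with talin, fell from 101.5, 100.2 and 99.9 CPM to 84.5, 84.9 and 79.4 CPM (log2 fold change -0.28, FDR = 6.44e-07). FERMT1, another kindlin, was not called (log2 fold change -0.02, SE 0.0486, FDR = 0.787, edgeR).

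Some other binders of integrin β tails rose, while the tensins TNS1 and TNS3 were not called (log2 fold changes -0.22 and 0.01, FDR = 0.425 and 0.919, edgeR). TNS4, a tensin, rose by 0.16 on the log2 scale (SE 0.0260, FDR = 7.37e-05, edgeR). TNS2, another tensin, rose by 0.17 (FDR = 0.0198), and ITGB1BP1, which competes with talin for ITGB1, by 0.15 with overlapping groups (FDR = 0.0217). Under DESeq2, TNS2 and ITGB1BP1 were not called (FDR = 0.169 and 0.0965). Both calls were also lost without si-N6AMT1 replicate 3 (FDR = 0.0631 and 0.202), that of TNS2 without si-CN replicate 2 (FDR = 0.102) and that of ITGB1BP1 without si-CN replicate 3 (FDR = 0.142).

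FLNA, the actin crosslinker that binds integrin β tails, fell by 0.12 on the log2 scale (FDR = 0.000516, edgeR). ACTN1, which binds vinculin and talin, fell by only 0.06 with an FDR of 0.0486, a call that held under limma-voom and was lost under every other alternative (FDR up to 0.177). The steepest falls among the called genes of the 108 were those of COL4A4, a basement membrane collagen (log2 fold change -0.42, FDR = 0.0377), LPP, a zyxin relative (-0.36, FDR = 2.80e-07), NPNT, a ligand of integrins (-0.30, FDR = 0.000495), and PARVA. The highest rises among the called genes were those of NID2, a basement membrane linker (0.39, FDR = 0.0133), COL6A2 (0.21, FDR = 0.00645) and COL6A1 (0.19, FDR = 3.02e-05), chains of microfibrillar collagen, and PTK2B, the kinase related to PTK2 (0.19, FDR = 0.0115). COL4A4 was at 1.01 TPM and lost its call without any of 4 libraries (FDR up to 0.152). NID2, COL6A2 and PTK2B each lost it without 1 si-CN library (FDR = 0.0626, 0.0539 and 0.0717), and COL6A2 and PTK2B also under DESeq2 (FDR = 0.0720 and 0.122).

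**Figure D4:**
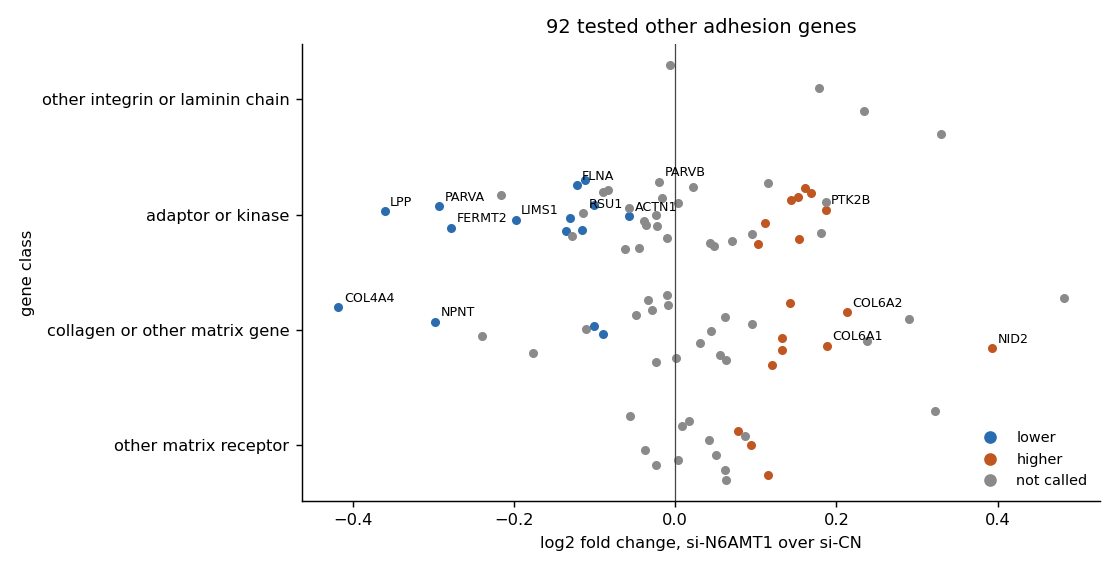
Log2 fold change of si-N6AMT1 over si-CN for the 92 tested adhesion genes outside the 39, with 1 point per gene, spread vertically within its class only for legibility, and colours for genes lower or higher at FDR under 0.05 (edgeR). The ILK partners PARVA and LIMS1 and the kindlin FERMT2 lie left of 0, while PARVB lies near 0.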

How the data were processed

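RNA-seq libraries of cells labelled MDA-MB-453 were compared, 3 per group. The authors trimmed reads with Trim Galore, estimated counts with kallisto 0.46.0 on hg19 and summed them by gene, and the deposited values are estimated (expected) counts in whole numbers, without normalization. Kallisto divides reads among similar transcripts, so counts of paralogs and overlapping genes are uncertain. Library totals ran from 19739247 to 21289740, so 1 CPM is 19.7 to 21.3 counts.

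Counts of all genes were tested with edgeR 4.0.16 in R 4.3.3 (expression filter with a minimum count of 10, TMM, quasi-likelihood test, no covariate). P-values of the 17320 genes were adjusted by Benjamini-Hochberg (FDR, called under 0.05), and SE was taken as |log2 fold change| over the root of F. The procedure was checked on simulated counts. TPM used the length of each reference transcript (62149 of 62438 identifiers matched). Symbols, coordinates and sequences come from GENCODE v44 on GRCh37.

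The listed genes, the adhesion lists and the UTR sequences were chosen with earlier results of these data known. Values per library were given for called genes and the 5 highest by TPM. Outside the 39, the 4 steepest falls, the 4 steepest rises and some direct partners of called genes were named, not all of them. A few genes are not reported here and were left out of the counts over lists. UTR sites were to be shown for called genes with 8 bases, and those of 7 bases were added after their values were seen. Alternatives were RLE size factors, no filter, DESeq2 1.42.0, limma-voom (limma 3.58.1), the replicate number as a block, each library left out, and another transcript length.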

Additional observations from a re-analysis of the deposited data

How the results depend on the processing

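Under RLE size factors, no filter, DESeq2, limma-voom, the block and each library left out, the 39 genes gave 7 to 9 falls and 4 or 5 rises, and no called gene changed sign. The called genes that lost a call were ITGB6, ITGAV and LAMB2. DESeq2 called 10 of the other adhesion genes higher (18 with edgeR) and, over all genes, 1139 lower and 796 higher (1993 and 1694 with edgeR); the cause was not tested. It gave no adjusted p for N6AMT1. Replicate numbers did not pair the libraries (same-number correlations of deviations -0.122, -0.0871 and 0.00421), and no library correlated best with its own number. With the replicate number as a block, 8 of the 39 fell and 4 rose, as LAMB2 was lost (FDR = 0.0642, edgeR). Without a filter LAMB2 had an FDR of 0.0513. With each library left out, log2 fold changes of uncalled genes crossed 0, from -0.0243 to 0.0540 for ITGAE, -0.132 to 0.0640 for ITGB2, -0.00103 to 0.0340 for ITGB4, -0.0575 to 0.0403 for ITGB8, -0.00466 to 0.287 for LAMA1, -0.250 to 0.0166 for LAMA2, -0.0913 to 0.464 for LAMA4, -0.0211 to 0.00707 for LAMB1 and -0.0217 to 0.0330 for TNS3. The summed share of counts differed by 0.0161 to 0.0356 percentage points with each library left out. The longest annotated UTRs also gave 9 genes with a site, and 24 genes stood at 10 TPM or more with the median transcript length (23 with the reference). Depth limits genes under 10 CPM. When 1 library was left out, its group had 2 libraries.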

Other observations

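Of the 30 tested collagens and other matrix genes outside the 39, 7 rose (23.3%, beside 9.78% of all genes) and 4 fell (13.3%, beside 11.5%) in si-N6AMT1 (edgeR quasi-likelihood test, FDR under 0.05). A comparison with genes at like levels was not made. COL17A1, the hemidesmosome collagen, rose from 665.3, 665.3 and 679.8 CPM in si-CN to 753.4, 732.2 and 718.7 CPM in si-N6AMT1, by 0.13 on the log2 scale (SE 0.0217, FDR = 8.66e-05, edgeR quasi-likelihood test). COL7A1, the collagen of anchoring fibrils, rose from 1176, 1206 and 1198 CPM to 1365, 1262 and 1296 CPM, by 0.13 (SE 0.0241, FDR = 0.000293, edgeR). The basement membrane proteoglycan AGRN rose by 0.12 (FDR = 0.000147, edgeR). Among the adaptors, PLEC, the plectin that ties ITGB4 to keratin filaments, fell by 0.13 (SE 0.0246, FDR = 0.000423, edgeR), from 315.4, 327.5 and 332.3 CPM to 304.8, 293.0 and 293.7 CPM. In none of COL17A1, COL7A1 and PLEC did the groups overlap. These genes were chosen for mention after their values were seen.

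The basal keratins KRT5 and KRT14 rose by 0.11 and 0.18 on the log2 scale (FDR = 0.000522 and 0.000215, edgeR), and the luminal keratins KRT8 and KRT18 by 0.12 and 0.08 (FDR = 0.000126 and 0.0150, edgeR). The basal keratin KRT17 and the luminal keratin KRT19 were not called (log2 fold changes -0.02 and 0.04, FDR = 0.612 and 0.959, edgeR). Of the other luminal markers, FOXA1, GATA3, ERBB2 and XBP1 were not called (FDR = 0.933, 0.329, 0.698 and 0.945, edgeR), and SPDEF was not tested. The called ones moved both ways. EPCAM fell by 0.12 (FDR = 0.000794, edgeR), whereas CDH1, at only 2.30 TPM in si-CN, rose by 0.54 (FDR = 0.00183, edgeR).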
